A study of Mus musculus with 19 samples.

Results

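Complex I, the NADH:ubiquinone oxidoreductase of the inner mitochondrial membrane, was followed through its nuclear genes in single mouse blastocysts. The genes were the listed ones whose symbol begins with Nduf, without pseudogenes (3 symbols ending in -ps) and without antisense or overlapping transcripts. They numbered 50 of 14173 listed genes and fell into 42 subunit genes and 8 assembly factors (Ndufaf1 to Ndufaf8). The subunit genes were 7 core subunits, 31 accessory subunits, with which Ndufa4 and the acyl carrier protein Ndufab1 are counted here, and 4 copies of subunit genes (Ndufb4b, Ndufb4c, Ndufb11b and Ndufs6b). Whether reads were split between these copies and the genes they resemble is not given in the sources used here, so their values are uncertain.

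Complex I takes electrons from NADH, passes them over a flavin and a chain of iron-sulfur clusters to ubiquinone, and pumps protons across the inner membrane. Its core subunits are conserved from bacteria and carry out this chemistry, some of them encoded in the nucleus and some in mitochondrial DNA, while the accessory subunits surround and stabilise the core. Assembly factors bind intermediates or modify subunits and are not part of the finished enzyme. The preimplantation embryo inherits its mitochondria from the oocyte and turns more to oxidative phosphorylation as the blastocyst forms.

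The 9 Padi6-mutant embryos, numbered 2 to 10, and the 10 Control embryos, numbered 1 to 10, were blastocysts with 1 polyadenylated RNA library each. The series' design text describes the mutant embryos as coming from oocytes with the Padi6 allele P620A, so the mutation is maternal, and describes them as those that passed the arrest at the two-cell stage. Strain, age of the mothers, litter and day are not given in the sources used here. The labels' culture protocol covers plated outgrowths and inner cell mass growth, and whether the sequenced embryos passed through it is not stated there. Padi6 encodes an oocyte protein of the subcortical maternal complex.

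Values are the deposited log2(scaled count + 1), which the authors scaled to an equal upper quartile in every library. Padi6 itself stood at 2.00 to 9.27 (median 6.48) in Padi6-mutant and at 3.81 to 9.24 (median 6.48) in Control embryos, and a missense allele need not change its level, so this checks no label. Padi6-mutant libraries had 113 to 596 listed genes at 0, with over 400 in mutants 6, 8, 9 and 10, against 30 to 247 in Control libraries. Of the lineage markers, 0 of 7 trophectoderm genes in the table (8 listed, Elf5 absent) differed by limma's adjusted p or at an unadjusted p under 0.05. Their summed scaled count was 107700 to 476600 in mutants and 214900 to 403900 in Controls. Tead4 was lower in mutants with library quality weights (-0.59, adjusted p = 0.037). It was also lower with the transcript length and GC trend removed (-1.17, adjusted p = 0.0030) and with coding length (-2.41, adjusted p = 1.8e-05), settings described further on. Its length there came from a model with 164 nt of coding sequence. After quantile normalization 1 of 7 was lower, against 1946 of 14173 genes. Of 6 inner cell mass genes, 2 were lower in mutants (Pou5f1 and Fgf4), against 12.0% of all genes, with sums of 12030 to 34720 in mutants and 23740 to 55950 in Controls, and Sox2 was at 0 in 1 library. With detected-gene number (listed genes above 0 in a library) as covariate, 0 of the 6 passed (adjusted p = 0.071 for Pou5f1 and 0.478 for Fgf4) and their median log2 change was 0.15, against -1.09 without it, and Fgf4 was lost if the 4 zero-rich mutant libraries were dropped (adjusted p = 0.256). Of 4 primitive endoderm genes in the table (5 listed, Sox7 absent), 3 were lower in mutants (Gata6, Sox17 and Pdgfra), against 12.0% of all genes. Sums over the 4 were 8555 to 13370 in mutants and 9137 to 38130 in Controls, and Gata4 was at 0 in 2 libraries. With the same covariate 0 of the 4 passed (adjusted p of 0.159 for Gata6, 0.690 for Sox17 and 0.620 for Pdgfra) and their median was -0.79, against -2.78 without it. Of these 4, 0 passed with the transcript length and GC trend removed, a setting described further on, 1 with coding length and 1 if the zero-rich libraries were dropped. None of 8 markers of cumulus and granulosa cells is among the listed genes. The part of lineage composition in the complex I values was not tested, and fewer cells of a type and less RNA per cell cannot be told apart in a whole embryo.

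Promoters of the genes are shown to place the nuclear control elements known for respiratory genes beside the values that follow. RefSeq's table for GRCm38.p6 held 42 of the 50 genes. Ndufa2, Ndufaf6, Ndufb11b, Ndufb4c, Ndufb9, Ndufs1 and Ndufs6b were among those without an entry. In the 250 bases before each start, both strands were searched for the letters GCGC and TGCGC with 1 free base N between them, the near palindrome bound by nuclear respiratory factor 1 (Nrf1), and for CCGGAAG, a core bound by ETS factors such as GABP. The Nrf1 letters were found before a start of 7 of the 42 genes (16.7%), namely Ndufa5, Ndufa8, Ndufa11, Ndufb4, Ndufs5, Ndufs6 and Ndufaf4, against 9.45% of 9575 listed genes with an entry. The ETS letters were found before 5 of the 42 (11.9%), namely Ndufb6, Ndufb7, Ndufs3, Ndufaf1 and Ndufaf8, against 16.7% of the 9575. These shares describe letters only and were not tested. The examples, 5′ to 3′ on the gene's strand with the motif letters in capitals, are 2 subunit genes with large rises, one of which holds the Nrf1 letters 3 times, an assembly factor with the Nrf1 letters, and a core subunit and an assembly factor with the ETS letters.
Ndufa5 (chr6:24527691-24527940, minus strand): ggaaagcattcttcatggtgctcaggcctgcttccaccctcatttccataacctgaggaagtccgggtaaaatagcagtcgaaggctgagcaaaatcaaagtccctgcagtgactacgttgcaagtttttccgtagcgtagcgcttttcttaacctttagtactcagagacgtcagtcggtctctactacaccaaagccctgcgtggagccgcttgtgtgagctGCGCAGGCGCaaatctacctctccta
Ndufb4 (chr16:37654369-37654618, minus strand): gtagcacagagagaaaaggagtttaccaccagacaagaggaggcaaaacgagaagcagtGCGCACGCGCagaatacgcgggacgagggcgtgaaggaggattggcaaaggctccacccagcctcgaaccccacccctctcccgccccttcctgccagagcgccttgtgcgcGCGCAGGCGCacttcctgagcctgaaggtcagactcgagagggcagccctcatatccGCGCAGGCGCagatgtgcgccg
Ndufaf4 (chr4:24897833-24898082, plus strand): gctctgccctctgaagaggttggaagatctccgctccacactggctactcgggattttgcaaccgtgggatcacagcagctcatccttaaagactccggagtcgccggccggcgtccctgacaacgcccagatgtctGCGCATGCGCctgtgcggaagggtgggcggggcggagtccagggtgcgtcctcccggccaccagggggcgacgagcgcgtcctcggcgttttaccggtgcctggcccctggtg
Ndufs3 (chr2:90904722-90904971, minus strand): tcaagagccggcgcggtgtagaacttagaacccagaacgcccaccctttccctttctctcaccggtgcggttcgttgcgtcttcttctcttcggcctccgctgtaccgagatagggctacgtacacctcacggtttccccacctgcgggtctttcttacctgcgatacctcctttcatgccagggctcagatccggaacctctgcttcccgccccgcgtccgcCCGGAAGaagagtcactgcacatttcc
Ndufaf8 (chr11:120098684-120098933, plus strand): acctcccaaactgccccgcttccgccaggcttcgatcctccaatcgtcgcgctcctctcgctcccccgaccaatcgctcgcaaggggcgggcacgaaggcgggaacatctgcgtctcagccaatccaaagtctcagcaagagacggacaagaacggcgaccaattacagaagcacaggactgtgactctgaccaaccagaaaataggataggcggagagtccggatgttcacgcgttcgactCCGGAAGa

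Most subunit genes were higher in Padi6-mutant blastocysts. By limma's two-sided test, adjusted over all 14173 genes at a threshold of 0.05, 37 of 42 subunit genes rose and 0 fell, also 0 at an unadjusted p under 0.05, with a median log2 fold change of 2.32. Of all genes, 14.6% rose and 12.0% fell, with a median of -0.10. Of the 8 assembly factors, 7 rose and 0 fell, also 0 at an unadjusted p under 0.05, with a median of 1.13. Every Padi6-mutant embryo lay above every Control embryo for 32 of 42 subunit genes and 1 of 8 assembly factors, against 2.67% of all genes. In the plot of fold changes by role, the accessory subunits lie farthest to the right, and the core subunits and assembly factors spread from about 0 upward.

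**Figure D1:**
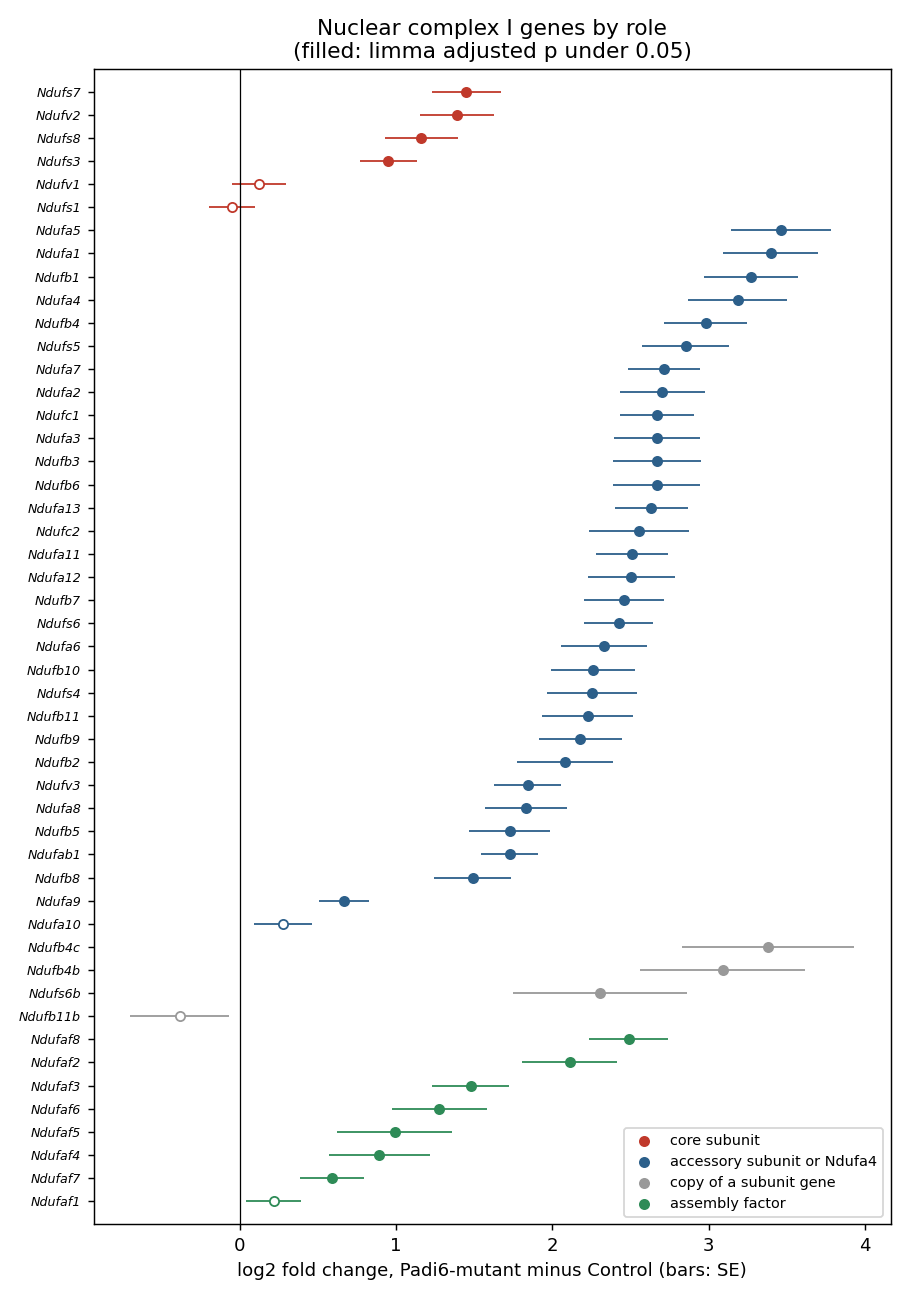
Log2 fold change of 49 nuclear complex I genes, Padi6-mutant minus Control, on the horizontal axis, grouped by role from top to bottom, with the standard error as bars (9 and 10 embryos). Filled points passed limma's adjusted threshold of 0.05, and open points did not; 30 of 31 accessory subunits and 7 of 8 assembly factors are filled.

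The nuclear core subunits were split. In all, 4 of 7 rose, against 14.6% of all genes, with a median log2 fold change of 0.95. In the Q module, which hands electrons to ubiquinone, Ndufs7, which holds the last iron-sulfur cluster before ubiquinone, stood at 13.39 to 14.21 (median 14.06) in Padi6-mutant and at 11.67 to 13.38 (median 12.49) in Control embryos. The groups just failed to meet, and the log2 fold change was 1.45 (SE 0.22, adjusted p = 3.6e-05). Ndufs8, another iron-sulfur protein, had 12.55 to 13.74 (median 13.03) in mutants and 10.97 to 12.71 (median 11.56) in Controls, with 7 of 9 mutants above every Control and a log2 change of 1.16 (SE 0.23, adjusted p = 7.5e-04). Ndufs3, a scaffold of the module, had 12.64 to 13.05 (median 12.84) in mutants and 11.07 to 12.51 (median 11.84) in Controls, without overlap, and rose by 0.95 on the log2 scale (SE 0.18, adjusted p = 4.3e-04).

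In the N module, which oxidises NADH, 1 of 3 core subunits rose. Ndufv2, an iron-sulfur protein, stood at 13.30 to 13.98 (median 13.59) in mutants and at 11.31 to 13.45 (median 12.07) in Controls, with a log2 change of 1.39 (SE 0.23, adjusted p = 1.3e-04). The highest Control, embryo 9, reached into the mutant range, and 7 of 9 mutants lay above it. Ndufv1, which binds NADH and the flavin, had 12.95 to 14.13 (median 13.72) in mutants and 12.76 to 13.92 (median 13.47) in Controls, with a log2 change of 0.12 (SE 0.17, adjusted p = 0.632), a sign that turned to -0.04 after quantile normalization. Ndufs1, the largest subunit, which carries several iron-sulfur clusters, had 12.18 to 12.99 (median 12.72) in mutants and 12.16 to 13.17 (median 12.68) in Controls. Its groups lay on top of each other, with a log2 change of -0.05 (SE 0.15, adjusted p = 0.834) that turned to 0.17 once the coding length and GC trend described further on was removed.

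The accessory subunits rose nearly without exception. Of the 31, 30 rose, against 14.6% of all genes, with a median log2 fold change of 2.51. The groups did not overlap for 27, against 2.67% of all genes. All 8 of the matrix arm rose (median 2.47), as did all 4 at the junction of the arms (median 2.23), 5 of 6 of the proximal membrane arm (median 2.61) and all 11 of the distal membrane arm (median 2.26). These medians lie closer together than the members inside each arm do, and a difference between arms was not tested.

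Ndufa5 of the matrix arm had the largest rise. It stood at 12.58 to 14.03 (median 13.55) in Padi6-mutant and at 8.67 to 11.77 (median 9.85) in Control embryos. The lowest mutant, embryo 10, exceeded the highest Control, embryo 9, and the log2 change of 3.47 (SE 0.32, adjusted p = 1.1e-07) is an 11.0-fold change on the scaled count + 1 scale. Ndufa1, a short protein of the proximal membrane arm encoded on the X chromosome, stood at 12.12 to 13.36 (median 12.60) in mutants and at 8.05 to 10.78 (median 9.01) in Controls. It rose by 3.40 on the log2 scale (SE 0.30, adjusted p = 9.1e-08), again without overlap.

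In the distal membrane arm, Ndufb1 had 11.44 to 13.05 (median 12.70) in mutants and 8.20 to 10.77 (median 9.09) in Controls, with a log2 change of 3.27 (SE 0.30, adjusted p = 1.1e-07). Its neighbours in this arm reached lower rises. Ndufb5 had 12.34 to 13.30 (median 12.81) in mutants and 10.09 to 12.46 (median 10.91) in Controls, with a log2 change of 1.73 (SE 0.26, adjusted p = 3.2e-05). Ndufb8 had 9.70 to 11.20 (median 10.07) in mutants and 7.76 to 9.68 (median 8.74) in Controls, with a log2 change of 1.49 (SE 0.24, adjusted p = 9.6e-05). Ndufb1 and Ndufb8 did not overlap between the groups, and for Ndufb5 8 of 9 mutants lay above every Control.

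Ndufa9 and Ndufa10 stood at the low end. Ndufa9, a nucleotide-binding protein at the junction of the arms, had 12.89 to 13.69 (median 13.33) in mutants and 11.99 to 13.24 (median 12.64) in Controls, with 8 of 9 mutants above every Control. It rose by 0.67 on the log2 scale (SE 0.16, adjusted p = 0.0034). Ndufa10, a protein related to nucleoside kinases, had 12.66 to 14.00 (median 13.53) in mutants and 12.53 to 13.75 (median 13.30) in Controls, which overlapped, with a log2 change of 0.28 (SE 0.19, adjusted p = 0.287).

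Ndufa4, first purified with complex I and found in complex IV, stood at 13.80 to 15.44 (median 14.78) in mutants and at 10.30 to 13.37 (median 11.20) in Controls. It rose by 3.19 on the log2 scale without overlap (SE 0.32, adjusted p = 2.2e-07). Its relative Ndufa4l2 is not among the listed genes. Ndufab1, the mitochondrial acyl carrier protein, which also serves fatty acid and iron-sulfur cluster synthesis, had 12.09 to 12.96 (median 12.71) in mutants and 10.13 to 11.57 (median 10.88) in Controls. It rose by 1.73, also without overlap (SE 0.18, adjusted p = 4.5e-07).

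Of the 4 copies, 3 rose at low levels. Ndufb4c had 5.09 to 7.12 (median 6.36) in mutants and 0.00 to 4.09 (median 2.81) in Controls, with a log2 change of 3.38 (SE 0.55, adjusted p = 9.2e-05), and the 0 was Control 6. Ndufb4b had 5.39 to 7.45 (median 6.36) in mutants and 2.00 to 5.36 (median 3.32) in Controls, with a log2 change of 3.09 (SE 0.53, adjusted p = 1.4e-04). Both move with Ndufb4, their parent in name, which rose by 2.98. Ndufs6b had 5.13 to 6.64 (median 5.52) in mutants and 1.00 to 4.91 (median 3.25) in Controls, without overlap, and a log2 change of 2.31 (SE 0.56, adjusted p = 0.0037). That call was lost with detected-gene number as covariate (adjusted p = 0.052) and with the transcript length and GC trend removed (0.72, adjusted p = 0.298). Ndufb11b had 8.21 to 10.66 (median 9.39) in mutants and 9.16 to 11.01 (median 9.66) in Controls. Its log2 fold change was -0.39 (SE 0.32, adjusted p = 0.390), beside a rise of 2.23 for Ndufb11.

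As a class, the assembly factors had a lower median change than the subunits (1.13 against 2.32) and overlapped more; the difference was not tested. Ndufaf8, the partner that stabilises Ndufaf5 in human cells, was the one without overlap. It had 10.00 to 11.41 (median 10.82) in mutants and 7.38 to 9.36 (median 8.24) in Controls, with a log2 change of 2.49 (SE 0.25, adjusted p = 2.9e-07). Ndufaf2, a paralogue of Ndufa12 that sits in its place on a late intermediate, had 10.54 to 11.25 (median 11.00) in mutants and 7.48 to 10.56 (median 8.48) in Controls. Mutant 7 alone fell below the highest Control, and the log2 fold change was 2.11 (SE 0.30, adjusted p = 2.1e-05).

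Ndufaf3 and Ndufaf4 bind each other on the growing Q module. Ndufaf3 had 9.64 to 10.84 (median 10.27) in mutants and 7.94 to 9.67 (median 8.93) in Controls, with 8 of 9 mutants above every Control, and rose by 1.48 (SE 0.25, adjusted p = 1.1e-04). Ndufaf4 had 10.25 to 11.74 (median 11.18) in mutants and 8.54 to 11.62 (median 9.95) in Controls, with a log2 change of 0.89 (SE 0.32, adjusted p = 0.043). Here 1 of 9 mutants lay above every Control, the call was lost without any one of 12 embryos (adjusted p up to 0.084), and with the coding length and GC trend removed the change was -0.07.

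Ndufaf6, Ndufaf5 and Ndufaf7 rose as well. Ndufaf6 had 9.66 to 10.78 (median 10.29) in mutants and 7.02 to 10.23 (median 8.79) in Controls, with a log2 change of 1.28 (SE 0.30, adjusted p = 0.0034). Ndufaf5, which hydroxylates an arginine of Ndufs7 in human cells, had 7.58 to 9.97 (median 8.94) in mutants and 6.21 to 9.13 (median 7.75) in Controls, with a log2 change of 0.99 (SE 0.37, adjusted p = 0.0495). Ndufaf7, a methyltransferase of the complex, had 9.80 to 11.22 (median 10.52) in mutants and 9.25 to 10.38 (median 10.13) in Controls, with a log2 change of 0.59 (SE 0.20, adjusted p = 0.036). The groups overlapped for all of them. The calls of Ndufaf5 and Ndufaf7 were lost without any of 13 and 8 embryos in turn (adjusted p up to 0.102 and 0.070).

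Ndufaf1, which works on the membrane arm with Acad9 and Ecsit, did not pass. It had 9.77 to 11.13 (median 10.59) in mutants and 9.90 to 10.59 (median 10.32) in Controls. The mutant range enclosed that of the Controls on both sides, and the log2 fold change was 0.22 (SE 0.18, adjusted p = 0.377), turning to -0.08 with the transcript length and GC trend removed.

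**Figure D2:**
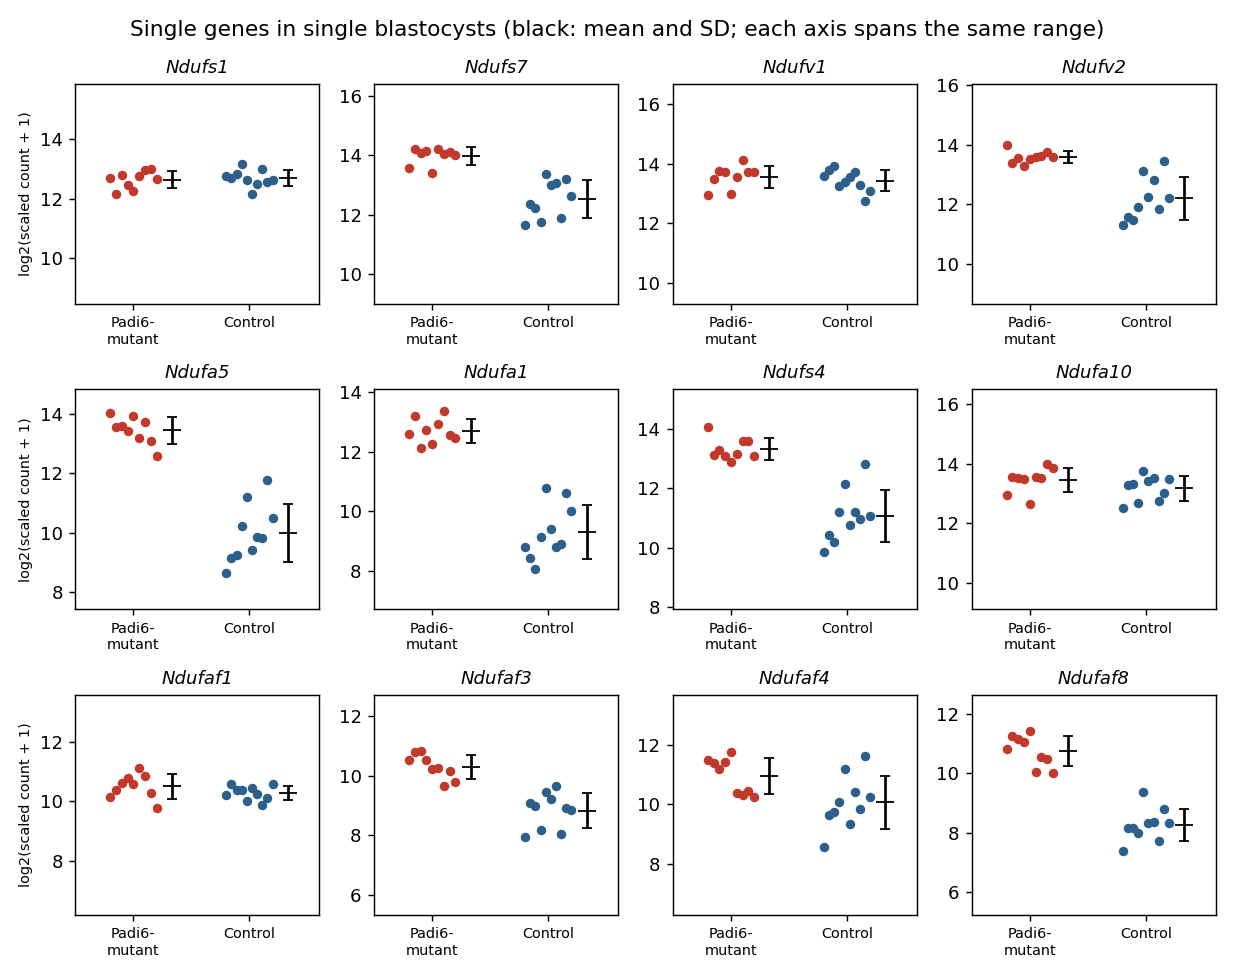
Log2(scaled count + 1) of 12 complex I genes in each embryo, Padi6-mutant (9) left and Control (10) right, with the mean and SD in black and the same span on every vertical axis. Ndufa5, Ndufa1 and Ndufaf8 do not overlap between the groups, while Ndufs1, Ndufv1, Ndufa10 and Ndufaf1 do.

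Set against each other within an embryo, accessory and core transcripts were unequal between the groups. The mean over accessory subunits was 12.36 to 13.10 in Padi6-mutant embryos (mean 12.84, SD 0.23) and 9.59 to 11.71 in Control embryos (mean 10.48, SD 0.68). The mean over core subunits was 12.81 to 13.41 in mutants (mean 13.15, SD 0.16) and 12.05 to 12.91 in Controls (mean 12.49, SD 0.32), the highest Control passing the lowest mutant. The accessory mean minus the core mean was -0.74 to 0.06 in mutants and -2.55 to -1.04 in Controls, without overlap. These are deposited values, in which fold change ran with coding length, as given further on. The median log2 fold changes of accessory and core subunits were 2.51 and 0.95 as deposited. They were 1.305 and 0.85 with the coding length and GC trend removed, and 1.37 and 0.32 with transcript length. A difference by role apart from length was not tested. On the linear scale, the subunits without copies took 0.61% to 0.86% of all scaled counts in mutants and 0.19% to 0.39% in Controls, and the core subunits took 16.0% to 25.6% of these in mutants and 27.9% to 54.0% in Controls.

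For the assembly factors the mean was 9.86 to 10.67 in mutants (mean 10.38, SD 0.26) and 8.16 to 9.98 in Controls (mean 9.13, SD 0.54). The subunit mean exceeded the assembly factor mean by 2.13 to 2.76 in mutants and by 1.38 to 2.1 in Controls, so that the groups did not meet. These means share the members already tested one by one and carry no test of their own.

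**Figure D3:**
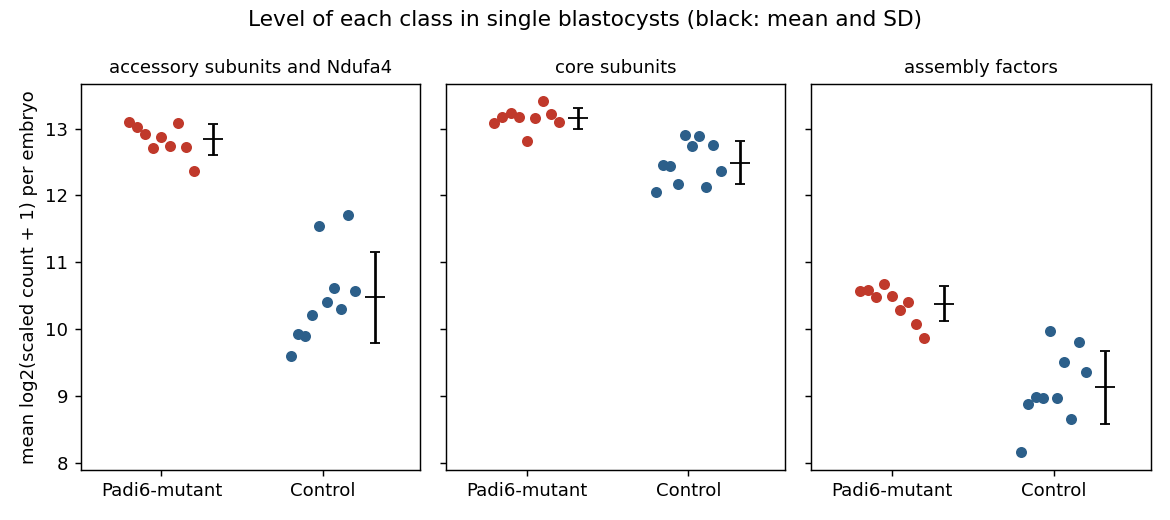
Mean log2(scaled count + 1) per embryo over the accessory subunits with Ndufa4, the core subunits and the assembly factors, Padi6-mutant (9 embryos) left and Control (10) right, with the mean and SD in black. The accessory means of the mutants (12.36 to 13.10) lie above those of all Controls (9.59 to 11.71), of which embryos 5 and 9 come nearest.

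The Control embryos varied more than the mutants, and 2 of them set most of the upper edge. Control 9 was the highest Control for 25 of the 50 genes and Control 5 for 16. Padi6-mutant 10 was the lowest mutant for 26 genes and mutant 6 for 11. Controls 5 and 9 also stood apart in how each library's deviations from the gene means ran with gene length over all genes. Spearman's rho, across genes and as a description, was -0.42 to -0.088 in mutants, -0.12 in both Control 5 and Control 9, and 0.072 to 0.40 in the other Controls. Leaving out any single embryo kept the number of subunit genes that rose at 37.

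Fold change ran with coding length inside the complex. Lengths were those of a single transcript per gene in GENCODE M21, on a mouse build older than that of the reads. This was the shortest transcript marked as principal, else the longest coding one, else the longest noncoding one. Short partial models can therefore enter. Over the 37 subunits with a coding length, Spearman's rho between it and the log2 fold change was -0.89, and over the 8 assembly factors it was -0.67. Over all 11157 genes with a coding length it was -0.42. These are correlations across genes, which share libraries and are not independent replicates.

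Below 400 nt of coding sequence, all 15 subunits rose with a median log2 fold change of 2.67, where 65.5% of 595 genes of that length rose with a median of 1.48. From 400 to below 600 nt, all 12 subunits rose (median 2.24), against 43.1% of 881 genes (median 0.64). From 600 to below 1000 nt, all 4 subunits rose (median 1.28), against 18.7% of 2155 genes (median 0.13). From 1000 to below 1500 nt, 2 of 5 subunits rose (median 0.28), against 5.62% of 2545 genes (median -0.22), and Ndufs1, alone at 1500 nt or more, did not rise where 2.01% of 4981 genes did. At each length below 1500 nt the median of the subunits lay above that of all genes, and both medians dropped with length. Of the assembly factors, Ndufaf8, the 1 factor below 400 nt, rose by 2.49, and all 3 from 400 to below 600 nt rose (median 1.48). From 600 to below 1000 nt 1 of 2 rose (median 0.75). From 1000 to below 1500 nt both factors rose (median 0.79), above the median of the 5 subunits of that length.

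The exception inside the complex was Ndufv3, a matrix arm subunit whose principal transcript encodes a long form next to a much shorter one, an isoform choice that gene-level values do not separate. With a coding length of 1404 nt it stood at 10.94 to 12.13 (median 11.63) in mutants and at 9.11 to 10.55 (median 9.66) in Controls, without overlap. It rose by 1.84 on the log2 scale (SE 0.21, adjusted p = 1.4e-06). Ndufv1, at 1392 nt, did not. Ndufv3 is named here after its values were seen.

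**Figure D4:**
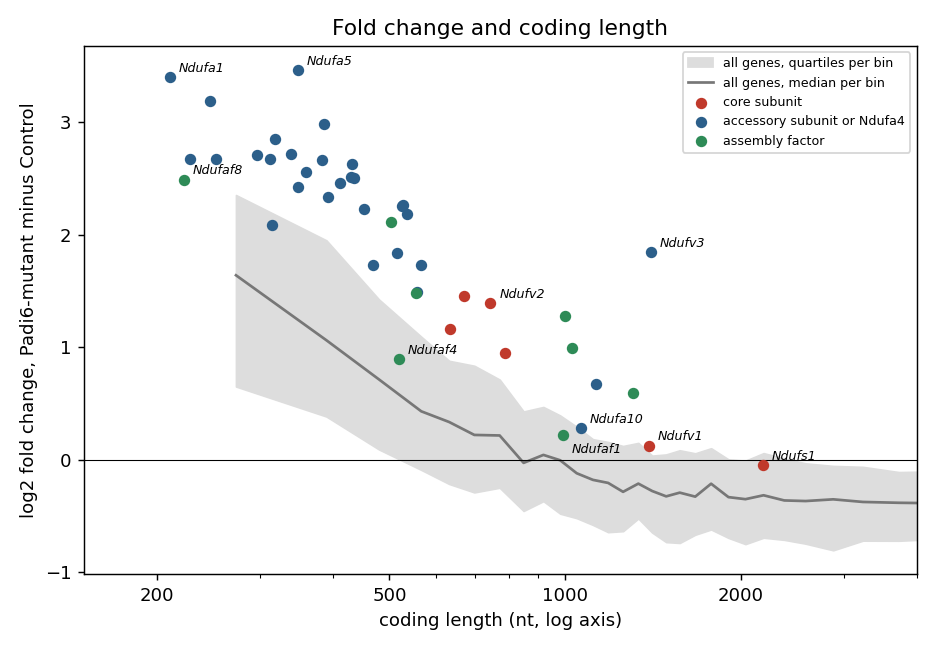
Log2 fold change, Padi6-mutant minus Control, against coding length in nucleotides on a log axis, for 44 complex I genes with a coding length (points) and for all genes in bins of length (grey line, median; band, quartiles). Points fall with length from Ndufa1 (210 nt, 3.40) to Ndufs1 (2181 nt, -0.05), most of them above the band, and Ndufv3 (1404 nt, 1.84) stands apart.

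With the trend on coding length and GC content removed from each library, an alternative added after the data were seen, 33 of 37 subunits rose, with a median of 1.24, and 5 of 8 assembly factors rose, with a median of 0.84. Of all genes with a coding length, 11.0% rose under this setting, with a median of -0.05. The gap between the medians of subunits and assembly factors was 0.41, against 1.19 before. Ndufa5 kept a change of 2.16 (adjusted p = 2.3e-07) and Ndufv3 reached 2.22 (adjusted p = 4.4e-07), while Ndufa1 came to 1.33 (adjusted p = 7.6e-05) and Ndufaf8 to 0.70 (adjusted p = 0.0067). Among core subunits 5 of 7 rose, Ndufv1 now at 0.51 (adjusted p = 0.010), with Ndufs1 at 0.17 not passing. With transcript length in place of coding length, 32 of 40 subunit genes and 5 of 8 assembly factors rose, against 10.6% of genes. Ndufs6b (adjusted p = 0.298), Ndufs8 (adjusted p = 0.135) and Ndufb8 (adjusted p = 0.231) lost their calls under that setting, and Ndufb2 under both (adjusted p = 0.093 with coding length and 0.098 with transcript length).

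**Figure D5:**
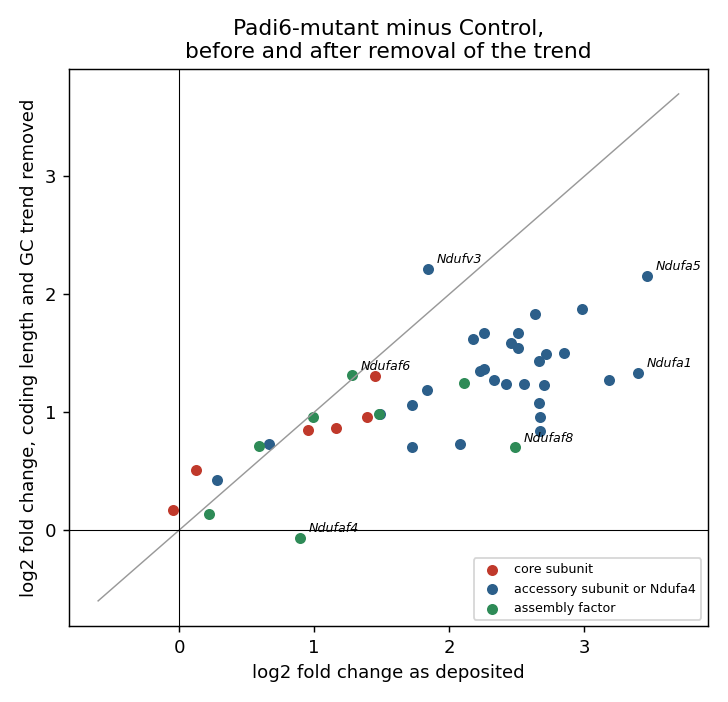
Log2 fold change, Padi6-mutant minus Control, of 44 complex I genes with a coding length as deposited (horizontal axis) and with the trend on coding length and GC content removed (vertical axis); the grey line marks equal values. Short accessory subunits such as Ndufa1 (3.40 and 1.33) lie below the line, Ndufv3 (1.84 and 2.22) above it, and Ndufaf4 (0.89 and -0.07) on the zero line.

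The number of genes at 0 was also higher at the median in Padi6-mutant libraries (203 against 101.5). Its ranges overlapped (113 to 596 against 30 to 247), and the difference was not tested. With detected-gene number as covariate, 36 of 42 subunit genes and 4 of 8 assembly factors rose, against 9.23% of all genes. If the 4 mutant libraries above 400 were dropped, the numbers were 37 of 42 and 5 of 8, against 11.9% of all genes. With library quality weights 37 subunit genes rose and 1 fell, against 18.8% and 19% of all genes. With the replicate number as a block, 37 of 42 subunit genes rose, against 10.9% of all genes. That fit leaves out Control 1, as no mutant has its number. The number was also 37 of 42 after quantile normalization, against 14.2%, and with a pseudocount of 10, against 15.0%. Among genes above the median level 33 of 38 rose, against 17.5%.

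Levels between genes were compared as log2 of the scaled count per kilobase of transcript, over the 38 subunits without copies. Ndufa4 was the most abundant of the 38 in mutants (15.85, SD 0.56) and the third in Controls (12.66, SD 0.92). In Controls, Ndufs7 (12.91, SD 0.63) and Ndufv1 (12.71, SD 0.35) stood before it, and these neighbours lay within 1 SD of each other. Ndufv1 had rank 22 in mutants (12.83, SD 0.38) and Ndufa5 had rank 14 in mutants (13.65, SD 0.45) against rank 32 in Controls (10.19, SD 0.96). Ndufb2 was the lowest of the 38 in both groups, with 10.49 (SD 0.46) in mutants and 8.41 (SD 0.73) in Controls. The SD over subunits within an embryo, on this scale, was 1.06 to 1.26 in mutants and 1.02 to 1.28 in Controls, which overlap.

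The subunits encoded in mitochondrial DNA form the proton-pumping core of the membrane arm. Of 7, 4 rose and 0 fell, against 14.6% and 12.0% of all genes. With detected-gene number as covariate 1 rose, against 9.23% of all genes. If the 4 zero-rich mutant libraries were dropped 1 rose, against 11.9%. With the transcript length and GC trend removed 1 rose and 2 fell, against 1435 and 1391 of 13565 genes. With coding length 4 rose and 1 fell, against 1225 and 1219 of 11157 genes. Mt-Nd3, short like many accessory subunits, stood at 10.92 to 12.37 (median 11.46) in mutants and at 5.70 to 10.18 (median 7.76) in Controls, without overlap, and rose by 3.61 on the log2 scale (SE 0.44, adjusted p = 2.3e-06). The rises of mt-Nd1 (log2 fold change 1.27, SE 0.38, adjusted p = 0.015), mt-Nd2 (1.25, SE 0.35, adjusted p = 0.011) and mt-Nd6 (0.86, SE 0.25, adjusted p = 0.013) overlapped with the Controls, and each call was lost if the 4 zero-rich mutant libraries were dropped (adjusted p = 0.139, 0.119 and 0.088). With the transcript length and GC trend removed, mt-Nd6 was lower in mutants instead (-0.83, adjusted p = 0.0022), and with coding length it stood at -0.15 (adjusted p = 0.439). The fold changes of mt-Nd4 (0.67, adjusted p = 0.059), mt-Nd5 (0.22, adjusted p = 0.537) and mt-Nd4l (0.15, adjusted p = 0.779) did not pass. Mt-Nd4 did pass with the coding length and GC trend removed (0.65, adjusted p = 0.021) and with quality weights (0.71, adjusted p = 0.017). It also passed without any 1 of 5 embryos. With detected-gene number as covariate it stood at 0.16 (adjusted p = 0.759). Mt-Nd4l, which overlaps mt-Nd4 on the same strand, turned to -1.58 with the coding length and GC trend removed, an adjusted p of 9.97e-04.

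Of 11 measured complex I assembly factors that carry other names, 4 rose and 2 fell, against 14.6% and 12.0% of all genes. Their median was 0.28. With detected-gene number as covariate 4 rose and 0 fell. The falls numbered 1 after quantile normalization, with the replicate number as a block, or if the zero-rich libraries were dropped. Lyrm2 (log2 fold change 1.89, SE 0.28, adjusted p = 2.8e-05) and Dmac1 (1.55, SE 0.30, adjusted p = 5.0e-04) rose, and both were near 0 with the coding length and GC trend removed (0.10 and 0.16). Tmem126b, a membrane protein of the complex in which Ndufaf1 works, rose by 1.32 (SE 0.27, adjusted p = 0.0010), and Timmdc1, a membrane arm factor, by 0.88 (SE 0.19, adjusted p = 0.0015).

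Acad9, the acyl-CoA dehydrogenase relative that partners Ndufaf1 and Ecsit, fell. It stood at 12.30 to 13.87 (median 13.18) in mutants and at 13.00 to 14.89 (median 14.15) in Controls, with overlap and a log2 change of -1.13 (SE 0.24, adjusted p = 0.0013). The call was lost with detected-gene number as covariate (adjusted p = 0.059). Tmem186, of the same complex, had a log2 change of -0.59 (SE 0.22, adjusted p = 0.047), lost without any of 13 embryos. Ecsit (0.31, adjusted p = 0.355), Nubpl (0.28, adjusted p = 0.451), which delivers iron-sulfur clusters, Tmem70 (0.13, adjusted p = 0.567), Foxred1 (-0.20, adjusted p = 0.482) and Dmac2 (-0.26, adjusted p = 0.368) did not pass.

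Genes of the other respiratory complexes rose too, so the rise was not shown to be particular to complex I. Of all genes 14.6% rose, and of the 595 genes below 400 nt of coding sequence 65.5% did. In complex IV, cytochrome c oxidase, 11 of 11 genes rose (median log2 fold change 2.37), among them Cox7c (3.12, SE 0.29, adjusted p = 1.2e-07) and Cox6a1 (2.37, SE 0.21, adjusted p = 1.0e-07). The 2 with the largest p were Cox7a1 (3.07, adjusted p = 8.2e-06) and Cox4i1 (1.95, adjusted p = 7.0e-06). In complex V, the ATP synthase, 15 of 18 rose (median 2.27). Among those with the smallest adjusted p were Atp5me (3.37, SE 0.29, adjusted p = 9.0e-08) and Atp5f1e (3.11, SE 0.27, adjusted p = 9.0e-08), while the catalytic subunit Atp5f1b (-0.28, adjusted p = 0.305) and Atp5f1d (0.37, adjusted p = 0.348) did not pass. Atp5f1b was lower past the threshold after quantile normalization (-0.78, adjusted p = 0.0097) and with quality weights (-0.45, adjusted p = 0.042). With detected-gene number as covariate it stood at -0.07 (adjusted p = 0.887).

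In complex III, 6 of 9 rose (median 2.64), against 14.6% of all genes. Uqcr11 (2.95, SE 0.21, adjusted p = 1.2e-08) and Uqcrq (2.77, SE 0.26, adjusted p = 1.2e-07), both small subunits, rose, and the large core proteins Uqcrc1 (-0.13, adjusted p = 0.732) and Uqcrc2 (0.01, adjusted p = 0.976) did not. In complex II, 6 of 8 rose (median 0.99), against the same 14.6%. Sdhaf4 (2.22, SE 0.34, adjusted p = 3.7e-05) and Sdhb (1.16, SE 0.20, adjusted p = 1.6e-04) stood ahead of Sdhd (0.40, adjusted p = 0.123) and the large flavoprotein Sdha (-0.20, adjusted p = 0.373). All 4 listed assembly factors of complex II, Sdhaf1 to Sdhaf4, are among the 6. In complex II, 2 of 8 rose with the coding length and GC trend removed (median -0.11), against 11.0% of all genes, and 3 of 8 both with detected-gene number as covariate, against 9.23%, and with the replicate number as a block, against 10.9%.

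Of 11 measured regulators of mitochondrial biogenesis, 1 rose and 3 fell, with a median log2 fold change of -0.10, beside 14.6% and 12.0% of all genes. The median turned to 0.25 with the transcript length and GC trend removed, where 2 rose and 3 fell, against 1435 and 1391 of 13565 genes. It turned to 0.23 with coding length, where 1 rose and 4 fell, against 1225 and 1219 of 11157 genes. Tfb1m, which methylates mitochondrial ribosomal RNA, rose by 1.38 (SE 0.22, adjusted p = 7.6e-05). Polrmt, the mitochondrial RNA polymerase, had 9.31 to 10.63 (median 9.70) in mutants and 10.13 to 11.72 (median 11.00) in Controls, with a log2 change of -1.17 (SE 0.24, adjusted p = 8.8e-04). The other falls, named after their values were seen, were those of the coactivator Pprc1 (-0.88, SE 0.21, adjusted p = 0.0028) and of Nrf1 itself (-0.81, SE 0.18, adjusted p = 0.0021). With detected-gene number as covariate none of the 3 falls passed (adjusted p = 0.069 for Polrmt, 0.058 for Pprc1 and 0.055 for Nrf1), and Pprc1 was lost with the coding length and GC trend removed (adjusted p = 0.171). Polrmt (-0.57, adjusted p = 0.019) and Nrf1 (-0.49, adjusted p = 0.015) stayed lower under that setting. Tfam (-0.60, adjusted p = 0.012) and Gabpa (-0.31, adjusted p = 0.044), also named after their values were seen, fell there too. Neither Tfam nor Gabpa passed as deposited (adjusted p = 0.519 and 0.065). Ppargc1b (-0.10, adjusted p = 0.760) and Esrra (0.07, adjusted p = 0.866), a coactivator and a nuclear receptor of respiratory genes, did not pass.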

How the data were processed

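Polyadenylated RNA of 9 Padi6-mutant and 10 Control blastocysts was captured on oligo-dT beads, copied by template switching, amplified in 17 cycles of PCR and made into Nextera XT libraries, per the labels' protocols. Builds GRCm39 and mm39 and the tools HISAT2 2.1.0 and Trim Galore 0.4.4 are named in the submitters' processing notes; the counting tool, its annotation and its use of strand are not given in the sources used here, so overlapping genes cannot be told apart. The deposited values are log2(scaled count + 1), scaled by the authors to 1 upper quartile, which the values show to be equal in all 19 libraries.

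In 13 libraries the step between low values would give 12.1 to 30.1 M counts (8 Padi6-mutant) and 27.9 to 46.1 M (5 Control), above the mean of 4.2 M reads in the labels. This was not resolved, so depth is taken as unknown, and no counting interval is given.

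Groups were compared with limma 3.58.1 in R 4.3.3 (trended eBayes, two-sided, Benjamini-Hochberg over all genes, threshold 0.05), fitted on every listed gene. The fit was also run on simulated data, with genes drawn independently of each other and no length trend. That run does not cover the length trend seen in these libraries. Each embryo counted as 1 replicate, and p-values cover the spread between these embryos, whose litters are not given. Fold changes are on the log2(value + 1) scale. Lengths came from GENCODE M21 by symbol, for 13565 genes (95.7%) and 48 of 50 members. A coding length was found for 11157 genes (78.7%) and 45 members; the model found for Ndufb1 is noncoding. Trends on length and GC content were removed by lowess (span 0.3).

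The members and lists were chosen with earlier results of these data known. Named genes were all assembly factors, the core subunits, Ndufa4, Ndufab1, the 5 other subunits with the largest and the 5 with the smallest change, the other complex I lists in full, and from each further list 2 genes with the smallest adjusted p and 2 with the largest p. 1 gene that meets this rule is counted in the totals and not reported here by name.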

Additional observations from a re-analysis of the deposited data

Results flagged for a closer look

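A single embryo far from the rest of its group was looked for in the named complex I genes and in the class means, over 68 groups of 9 or 10 embryos, where chance flags about 1 in 20 groups. Ndufb4c was listed at 0.0 in Control 6, while the next lowest Control stood at 2.81. Ndufb8 stood at 11.2 in Padi6-mutant 8, while the next highest mutant stood at 10.5. The groups of both genes did not overlap with these embryos included.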

How the results depend on the processing

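The number of subunit genes that rose was 32 to 37 under every alternative, out of totals that differ. It was 32 of 40 with transcript length, 33 of 37 with coding length and 33 of 38 among genes above the median level. Genes without a length or below that level drop out of these totals. 1 subunit gene fell with library quality weights. The number of assembly factors that rose dropped to 4 with detected-gene number as covariate, and was 4 to 7 without 1 embryo in turn. No pairing by replicate number was seen: same-numbered embryos deviated together with correlations of -0.0716 to 0.152, and 1 of 9 correlated best with its own number. Weak correlations cannot show that the numbers carry no pairing. With the replicate number as a block, a fit that leaves out Control 1, 4 assembly factors rose and Uqcrc2 came to -0.03. Uqcrc2 also came to -0.03 without Control 1 and with no block. The subunit median was 1.24 with the coding length and GC trend removed and 1.30 with transcript length, and its excess over the assembly factor median was 0.41 and 0.57, and 0.95 with detected genes. In the other respiratory lists, 47 of 75 measured genes rose and 5 fell as deposited. With the coding length trend removed 28 of 58 rose, against 1225 of 11157 genes. With transcript length 29 of 58 rose, against 1435 of 13565 genes. The totals of 58 leave out genes without a length, so these numbers are not a drop from 47 of the same genes. With quality weights 8 of 75 fell, against 2689 of 14173 genes, and with detected genes 0 of 75 (at an adjusted p). The length check is void for complex V, where 1 of 18 genes had a length.

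These log2 fold changes turned sign, most of them not past the threshold in either setting. With the coding length trend removed they were Ndufaf4 (-0.066), Ndufs1 (0.17), Foxred1 (0.076), Tmem70 (-0.22), mt-Nd4l (-1.58, adjusted p = 9.97e-04), mt-Nd6 (-0.15), Sdhd (-0.49), Sdha (0.057), Uqcrc1 (0.29) and Ppargc1b (0.44). With transcript length they were Ndufaf1 (-0.085), Ndufs1 (0.014), Dmac2 (0.018), Tmem70 (-0.056), mt-Nd4l (-1.76, adjusted p = 3.9e-04), mt-Nd6 (-0.83, adjusted p = 0.0022), Sdhd (-0.057), Uqcrc1 (0.089), Uqcrc2 (-0.096) and Ppargc1b (0.37). With detected genes they were Dmac2 (0.093), mt-Nd4l (-0.50), mt-Nd5 (-0.17), Uqcrc1 (0.22), Uqcrc2 (-0.0038) and Ppargc1b (0.16). With quantile normalization they were Ndufv1 (-0.043), mt-Nd5 (-0.25) and Uqcrc2 (-0.14), and if the 4 zero-rich mutant libraries were dropped mt-Nd4l (-0.37) and mt-Nd5 (-0.056). Without 1 embryo in turn, Ndufs1 ran from -0.11 to 0.0096, mt-Nd4l from -0.0039 to 0.30, Uqcrc1 from -0.25 to 0.0031, Uqcrc2 from -0.038 to 0.068 and Esrra from -0.027 to 0.21. The cause was not tested.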
